A study of Homo sapiens with 9 samples.

Results

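A set of 9 genes of stress, hormone and glucose signalling was followed in 293T cells given an shRNA against DIS3: TSC22D1, TSC22D2, TSC22D3, TSC22D4, TXNIP, ARRDC3, ARRDC4, FKBP5 and SGK1. They were chosen by name, 9 of the 61853 genes in the deposited table, with the differences between DIS3-sh1 and Scramble of an earlier pass over these data known. The values of the 9 genes in that contrast are therefore given as a description, without a test. 293T cells are a long-used human line from embryonic kidney, transformed with viral genes. The 2 groups used here were Scramble, cells labelled wild type and treated with Scramble shRNA, and DIS3-sh1, cells labelled as DIS3 knockdown and treated with DIS3-sh1 shRNA, each with 3 libraries of ribosomal RNA-depleted total RNA. How the shRNAs were delivered and for how long is not given in the sources used here, 1 shRNA stands for the knockdown, and DIS3-sh2 is not analysed here. The series title asks about circular RNAs after loss of DIS3, whereas the values below are sums over all reads of a gene.

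TSC22D proteins share a conserved TSC box followed by a leucine zipper, through which they form dimers. TSC22D3, also called GILZ, is a classic target of the glucocorticoid receptor and of FOXO factors, while TSC22D1 was found as a gene stimulated by TGF-beta, and TSC22D2 and TSC22D4 associate with the pseudokinase NRBP1 and with WNK kinases. TXNIP, ARRDC3 and ARRDC4 are alpha-arrestins, adaptors that bind membrane proteins and recruit ubiquitin ligases of the NEDD4 family, and TXNIP in addition binds thioredoxin and restrains glucose uptake. MondoA (MLXIP) with its partner MLX senses glucose phosphate and drives TXNIP and ARRDC4 through carbohydrate response elements. FKBP5, an HSP90 co-chaperone that dampens the glucocorticoid receptor, and SGK1, a kinase close to AKT, are induced by glucocorticoids in many cell types.

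The libraries held between 19800892 and 23532148 counts. Levels are given as CPM, counts scaled to the TMM-adjusted size of each library. DIS3, the target, measured 175.8, 186.1 and 177.1 CPM with the Scramble shRNA, against 26.6, 27.8 and 27.9 CPM with DIS3-sh1 (log2 fold change -2.71 ± 0.04, adjusted p = 6.76e-30, edgeR quasi-likelihood test). Of 12 genes fixed as markers of 293T cells, all but LHX1 reached 1 CPM in at least 1 library, and VIM averaged 1221 ± 8.0 CPM in Scramble (SD, n = 3). Of 16 markers of other cell types, 14 stayed under 1 CPM in every library and CD3E, MYH7 and HBB had no count, and their summed level was 17.6 to 18.8 CPM in Scramble and 25.7 to 29.7 CPM in DIS3-sh1, most of it COL1A1. The part of these markers in the results was not tested. DIS3-sh1 replicate 1 differed most from its 2 companions, with 9.38% of counts in small structural RNAs against 8.24% and 8.31%, and 4.94% to 5.15% in Scramble. Values without DIS3-sh1 replicate 1 are given below for FKBP5, ARRDC2 and GFPT1, and other values may depend on it too. In bulk RNA, fewer cells with a transcript and less transcript per cell cannot be told apart.

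TSC22D3 and TXNIP stood well above their Scramble levels in DIS3-sh1, at 3.50-fold and 3.97-fold. ARRDC4 was 1.45-fold higher, ARRDC3 overlapped between the groups, and TSC22D1, TSC22D2, TSC22D4, FKBP5 and SGK1 were lower. All 9 genes passed edgeR's expression filter, with between 76 and 6766 counts in a library. The libraries of the groups did not overlap for 8 of them, 3 higher and 5 lower, where 69.8% of the 19591 genes tested did not overlap, 35.6% higher and 34.2% lower. Since the genes were picked with this contrast known, nothing is read from these counts. By the test, 67.0% of all genes were called. Of the 9 genes, 2 were higher by at least 2-fold and 0 lower by as much, where 10.1% of all genes were called higher and 3.94% lower at that size. The median log2 fold change of the 9 genes was -0.13, beside 0.019 for all genes tested.

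**Figure D1:**
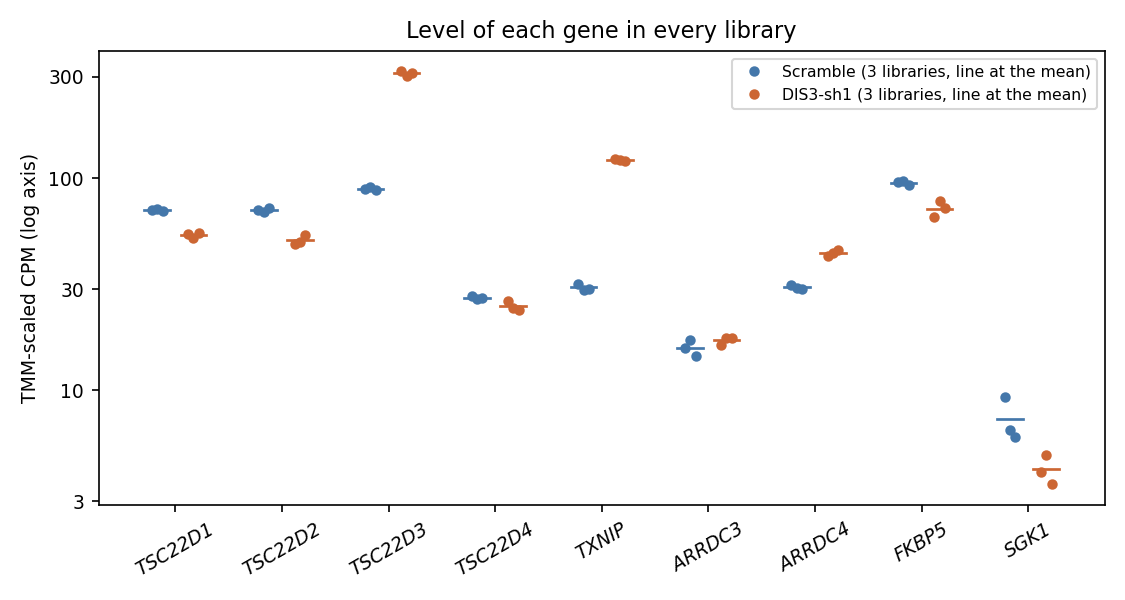
TMM-scaled CPM (log axis) of the 9 genes in each of 3 Scramble and 3 DIS3-sh1 libraries, with a line at each mean. TSC22D3 and TXNIP show the widest gaps between the groups, ARRDC3 overlaps, and SGK1 is the lowest and the most scattered.

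Among the TSC22D genes, TSC22D3 alone was higher in DIS3-sh1. TSC22D3 (ENSG00000157514.18) spans 107713221 to 107777342 of chromosome X (hg38, minus strand) and codes for the glucocorticoid-induced leucine zipper protein. The Scramble libraries gave 88.7, 91.0 and 87.6 CPM, and those of DIS3-sh1 gave 318.5, 303.3 and 313.65 CPM. The lowest DIS3-sh1 library was more than 3 times the highest Scramble library. The log2 fold change was 1.81 ± 0.03 (SE), from 89.1 ± 1.75 to 312 ± 7.74 CPM (SD, n = 3 each). Of the 10878 tested genes that averaged 10 CPM or more, 47 had a larger log2 fold change than TSC22D3.

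TSC22D1 (ENSG00000102804.15, chromosome 13, 44432143 to 44577147, minus strand) stood at 71.1, 71.6 and 70.2 CPM in the Scramble libraries, and at 54.7, 52.3 and 55.4 CPM after DIS3-sh1. Its groups did not overlap, with a log2 fold change of -0.39 ± 0.05 (SE). TSC22D2 (ENSG00000196428.13, chromosome 3, 150408335 to 150466431, plus strand) started from nearly the same CPM, 70.7, 69.1 and 72.2, and stood at 48.7, 50.2 and 54.3 CPM after DIS3-sh1. That is a log2 fold change of -0.47 ± 0.05 (SE), close to that of TSC22D1 and opposite in sign to that of TSC22D3. TSC22D4 (ENSG00000166925.9, chromosome 7, 100463359 to 100479279, minus strand) differed least of the family: 27.8, 27.0 and 27.2 CPM against 26.4, 24.4 and 24.0 CPM. DIS3-sh1 replicate 1 of TSC22D4 lay just under the lowest Scramble library, and the log2 fold change was -0.13 ± 0.07 (SE). With upper-quartile scaling the TSC22D4 value was -0.05.

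Because a long gene collects more reads, levels of different genes were compared as CPM per kb of annotated exon. On that scale TSC22D3 was already the highest of the 9 genes in Scramble. It made up 46.0%, 47.0% and 45.9% of the summed level of TSC22D1 to TSC22D4 in the Scramble libraries, and 79.1%, 78.95% and 78.9% in the DIS3-sh1 libraries. TSC22D1 went from 20.5% ± 0.07 to 7.61% ± 0.11 of the family's sum, and TSC22D2 from 15.0% ± 0.43 to 5.28% ± 0.32 (SD, n = 3). The sum over the family was 40.4 ± 0.28 CPM per kb in Scramble and 82.8 ± 1.98 in DIS3-sh1. Without TSC22D3 it was 21.7 ± 0.15 and 17.4 ± 0.37 CPM per kb, lower in every DIS3-sh1 library. In DIS3-sh1 the family's RNA was thus mostly TSC22D3, in each of the 3 libraries.

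**Figure D2:**
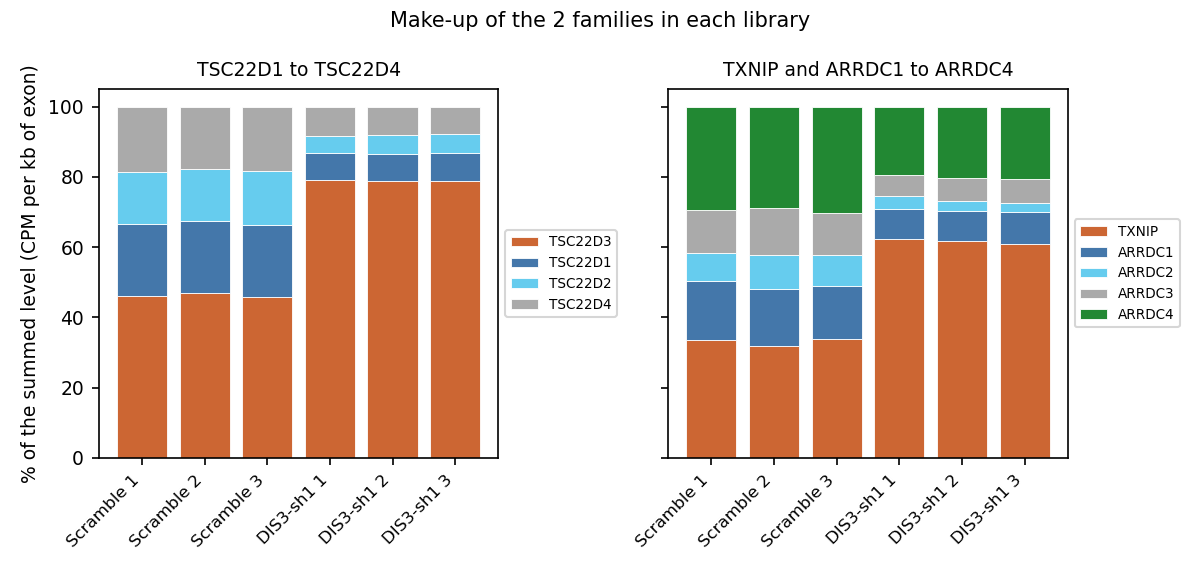
Share (%) of each gene in the summed level (CPM per kb of exon) of TSC22D1 to TSC22D4 (left) and of TXNIP with ARRDC1 to ARRDC4 (right), 1 bar per library. TSC22D3 goes from about 46% to 79% and TXNIP from 33.1% to 61.6% on average.

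TXNIP (ENSG00000265972.6) spans 145992435 to 145996600 of chromosome 1, also on the minus strand. Its Scramble libraries gave 31.8, 29.9 and 30.1 CPM, and its DIS3-sh1 libraries 122.6, 121.4 and 120.2 CPM. The coefficient of variation over the DIS3-sh1 libraries was 0.99%, the smallest of the 9 genes in that group. Its log2 fold change was 1.99 ± 0.05 (SE), between means of 30.6 ± 1.05 and 121 ± 1.20 CPM (SD, n = 3 each). Of the 10878 tested genes at 10 CPM or more, 30 had a larger log2 fold change than TXNIP.

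ARRDC4 (ENSG00000140450.9, chromosome 15, 97960698 to 97973838, plus strand) began at almost the same CPM as TXNIP, 31.4, 30.3 and 30.2 in Scramble. In DIS3-sh1 it measured 42.9, 44.6 and 46.1 CPM, above every Scramble library. The log2 fold change of ARRDC4 was 0.54 ± 0.06 (SE), and that of TXNIP, the other textbook target of MondoA, was 1.99. ARRDC3 (ENSG00000113369.9, chromosome 5, 91368724 to 91383359, minus strand) is known for binding beta-adrenergic receptors and recruiting NEDD4 to them. Its 3 Scramble values were 15.9, 17.2 and 14.6 CPM, beside 16.4, 17.6 and 17.7 CPM for DIS3-sh1. The groups of ARRDC3 overlapped, and its log2 fold change of 0.11 ± 0.08 (SE) went from 0.05 without Scramble replicate 3 to 0.17 without Scramble replicate 2.

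The 2 other alpha-arrestins that were tested, ARRDC1 and ARRDC2, had smaller differences of opposite sign. ARRDC1 rose by a log2 fold change of 0.21 ± 0.08 (adjusted p = 0.0232), and ARRDC2 fell by 0.42 ± 0.11 on the log2 scale (adjusted p = 0.00126, edgeR quasi-likelihood test). The ARRDC1 call was lost with DESeq2 (adjusted p = 0.0755), without Scramble replicate 3 (0.172) and without DIS3-sh1 replicate 3 (0.106, edgeR). The log2 fold change of ARRDC2 was -0.53 without DIS3-sh1 replicate 1 and -0.34 without DIS3-sh1 replicate 3. ARRDC5 had no count in any library. On the scale per kb, TXNIP held 33.5%, 31.9% and 33.8% of the summed level of TXNIP and ARRDC1 to ARRDC4 in Scramble, and 62.3%, 61.8% and 60.7% in DIS3-sh1. ARRDC4, nearly level with TXNIP in Scramble at 29.5% ± 0.69, held 20.1% ± 0.67 in DIS3-sh1 although its own level was higher there. Without TXNIP the alpha-arrestins summed to 17.1 ± 0.73 CPM per kb in Scramble and 20.9 ± 0.51 in DIS3-sh1.

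FKBP5 and SGK1, which many cells raise together with TSC22D3 under glucocorticoids, lay on the other side. FKBP5 (ENSG00000096060.15, chromosome 6, 35573585 to 35728583, minus strand) had the highest CPM of the 9 genes in Scramble, 95.6, 97.5 and 93.1. It measured 65.4, 78.1 and 72.4 CPM in DIS3-sh1, all below Scramble, with DIS3-sh1 replicate 1 the lowest. The log2 fold change was -0.41 ± 0.05 (SE) and -0.34 without DIS3-sh1 replicate 1. SGK1 (ENSG00000118515.12, chromosome 6, 134169246 to 134318112, minus strand) was the least abundant, with 217, 137 and 124 counts in Scramble and 88.5, 99.5 and 76 counts in DIS3-sh1. That is 9.35, 6.53 and 6.07 CPM against 4.14, 4.99 and 3.62 CPM. Scramble replicate 1 lay well above the other 2, a coefficient of variation of 24.3% in Scramble, yet every DIS3-sh1 library was below every Scramble library. The log2 fold change of SGK1 was -0.79 ± 0.16 (SE), and -0.57 without Scramble replicate 1.

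**Figure D3:**
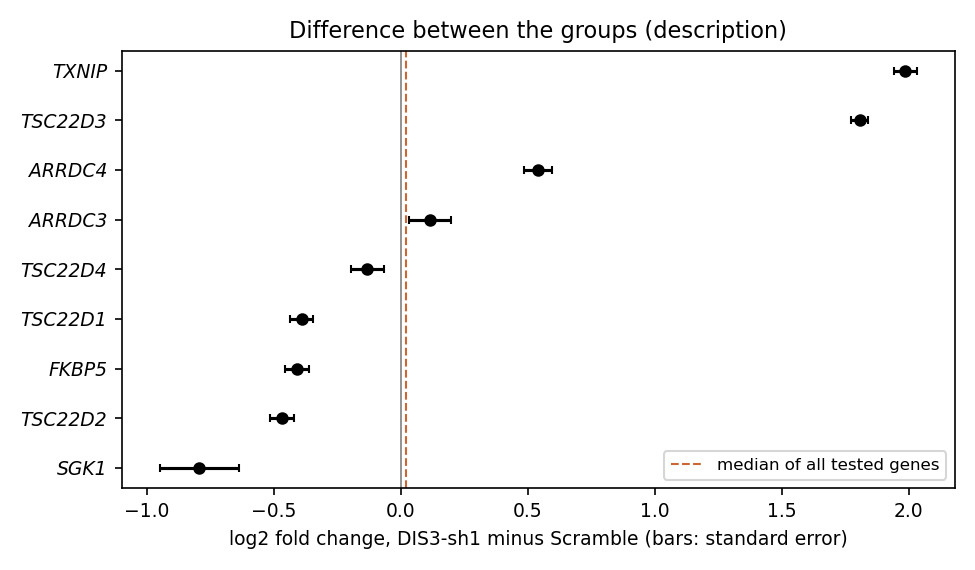
Log2 fold change of each gene (DIS3-sh1 minus Scramble) with its standard error, sorted, beside the median of all tested genes (dashed). TXNIP (1.99) and TSC22D3 (1.81) lie far to the right, ARRDC4 (0.54) between, and SGK1 (-0.79) farthest to the left.

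Per kb of exon, the order in Scramble was TSC22D3 at 18.7 ± 0.37, FKBP5 at 8.98 ± 0.21, TXNIP at 8.44 ± 0.29, TSC22D1 at 8.26 ± 0.08, ARRDC4 at 7.52 ± 0.16, TSC22D4 at 7.36 ± 0.11, TSC22D2 at 6.05 ± 0.13, ARRDC3 at 3.22 ± 0.27 and SGK1 at 0.73 ± 0.18 CPM per kb (SD, n = 3). The ranges over the libraries of FKBP5 and TXNIP, of TXNIP and TSC22D1, and of ARRDC4 and TSC22D4 overlapped. Within each Scramble library, however, FKBP5 stood above TXNIP and ARRDC4 above TSC22D4. Only TXNIP and TSC22D1 changed order between libraries. These differences between genes were not tested. In DIS3-sh1 the order began with TSC22D3 at 65.4 ± 1.62, TXNIP at 33.5 ± 0.33 and ARRDC4 at 10.9 ± 0.39 CPM per kb. FKBP5 (6.77 ± 0.60), whose libraries ran from 6.15 to 7.34, overlapped both TSC22D4 (6.71 ± 0.33) and TSC22D1 (6.31 ± 0.19). They were followed by TSC22D2 (4.37 ± 0.25), ARRDC3 (3.49 ± 0.15) and SGK1 (0.43 ± 0.07). Exon lengths are unions over all annotated transcripts, which understates genes whose longest exons are little used.

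Several of these genes share exons with a neighbour. The kit marks strand, but whether the counting used it is not given in the sources used here. TSC22D1 shares 535 exon bases with ENSG00000280357, 469 with TSC22D1-AS1 and 117 with ENSG00000225727. ARRDC3 shares 145 with ARRDC3-AS1 and TSC22D3 shares 71 with NCBP2L. TSC22D4 shares 391 exon bases with SPACDR on its own strand. ARRDC3-AS1 measured 4.82, 5.34 and 5.28 CPM against 7.20, 5.39 and 5.19 CPM after DIS3-sh1, a difference that was not called (adjusted p = 0.193). TSC22D1-AS1, ENSG00000225727, NCBP2L and SPACDR stayed under 1 CPM in every library, against at least 24.0 CPM for the genes they overlap. ENSG00000280357 measured 0 CPM in every library. Of TSC22D3 and FKBP5, 0 of 6 values were whole numbers, and of TSC22D2 and SGK1 4 of 6 were whole.

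For TXNIP, TSC22D3 and ARRDC3, the genes with the most similar profile were sought among 10498 others that averaged 10 CPM or more, by the Euclidean distance of centred log2 CPM over the 6 libraries. Nearest to TXNIP were CCND2 (distance 0.09), TTC39A (0.105) and SEMA4G (0.11). CCND2, a D-type cyclin gene, stood at 80.0, 81.55 and 78.6 CPM with Scramble and at 315.4, 313.3 and 306.9 CPM with DIS3-sh1, a log2 fold change of 1.96. Nearest to TSC22D3 were RIMS3 (0.08), VLDLR (0.13) and ABHD14B (0.14), and nearest to ARRDC3 were CCDC174 (0.05), BCL2L1 (0.06) and APPL2 (0.07). With 6 libraries in 2 groups, such a distance mostly compares the size of the group difference.

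The promoters of the genes that stood higher, and of ARRDC3 for comparison, show which of the response elements named above lie next to their start sites. RefSeq windows on GRCh38.p14, from 250 bases before to 50 bases after an annotated start, were found for 8 of the 9 genes (20 windows in all), the exception being TSC22D2. The window with the most matches to the searched elements is shown for each of 4 genes. The sequences run 5′ to 3′ along the gene, and capitals mark matches on either strand to CACGNG, the repeated core of a carbohydrate response element, or to GTAAACA, the core recognised by FOXO factors.
TXNIP, chr1:145996530-145996829, minus strand: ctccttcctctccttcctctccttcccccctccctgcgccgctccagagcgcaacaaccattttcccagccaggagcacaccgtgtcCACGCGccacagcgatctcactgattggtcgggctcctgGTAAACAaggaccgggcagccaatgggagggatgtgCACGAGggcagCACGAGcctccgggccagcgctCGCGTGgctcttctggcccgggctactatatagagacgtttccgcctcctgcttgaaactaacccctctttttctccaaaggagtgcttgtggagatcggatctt
ARRDC4, chr15:97960453-97960752, plus strand: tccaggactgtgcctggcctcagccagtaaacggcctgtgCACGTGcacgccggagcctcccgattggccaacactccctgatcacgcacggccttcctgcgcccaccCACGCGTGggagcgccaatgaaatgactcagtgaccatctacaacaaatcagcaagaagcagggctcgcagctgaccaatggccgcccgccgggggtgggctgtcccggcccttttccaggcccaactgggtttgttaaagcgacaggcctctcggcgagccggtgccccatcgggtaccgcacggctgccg
ARRDC3, chr5:91380048-91380347, minus strand: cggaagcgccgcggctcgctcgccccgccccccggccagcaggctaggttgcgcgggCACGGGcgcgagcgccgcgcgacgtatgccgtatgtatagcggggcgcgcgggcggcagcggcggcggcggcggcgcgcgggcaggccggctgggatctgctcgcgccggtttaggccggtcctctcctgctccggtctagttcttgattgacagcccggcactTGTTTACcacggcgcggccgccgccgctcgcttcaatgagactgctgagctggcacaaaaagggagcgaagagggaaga
TSC22D3, chrX:107717013-107717312, minus strand: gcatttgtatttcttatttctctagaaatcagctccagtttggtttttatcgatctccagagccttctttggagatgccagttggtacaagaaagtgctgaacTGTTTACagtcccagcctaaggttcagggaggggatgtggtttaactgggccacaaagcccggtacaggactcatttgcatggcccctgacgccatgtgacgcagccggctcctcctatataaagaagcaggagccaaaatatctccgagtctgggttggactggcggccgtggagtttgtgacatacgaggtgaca

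In the TXNIP window, 2 such cores 5 bases apart form the pair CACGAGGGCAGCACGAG at 145996651 to 145996667, beginning 88 bases before the start. A pair of that form, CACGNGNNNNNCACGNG on either strand, occurred in 20 of 35116 windows of all genes (0.057%), and among the 20 windows of the genes described here only in that of TXNIP. The ARRDC4 window held the palindromic E-box CACGTG, which is also a match to CACGNG, 210 bases before the start, and 2 overlapping matches to CACGNG 142 and 140 bases before it. E-boxes were in 7.26% of all windows and CACGNG in 30.5%. Among the 20 windows here, E-boxes were in 3, those of ARRDC4, FKBP5 and TSC22D1. CACGNG was in 7 windows of 6 genes: TXNIP, ARRDC4, ARRDC3, FKBP5, SGK1 and TSC22D1. Both elements thus also lay beside genes that were lower in DIS3-sh1. FOXO cores lay 124 bases before the TXNIP start, 29 before this ARRDC3 start and 147 before this TSC22D3 start. They were in 3.42% of all windows and in 3 of the 20 windows here, 1 each for TXNIP, ARRDC3 and TSC22D3. The palindromic pattern GNACANNNTGTNC, a loose form of the glucocorticoid response element (0.390% of all windows), matched only in TXNIP among these windows, 175 bases before the start, and overlaps a CACGNG match there by 1 base. FKBP5, SGK1 and TSC22D3 had no such match in these windows, which says only that the letters are not there.

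**Figure D4:**
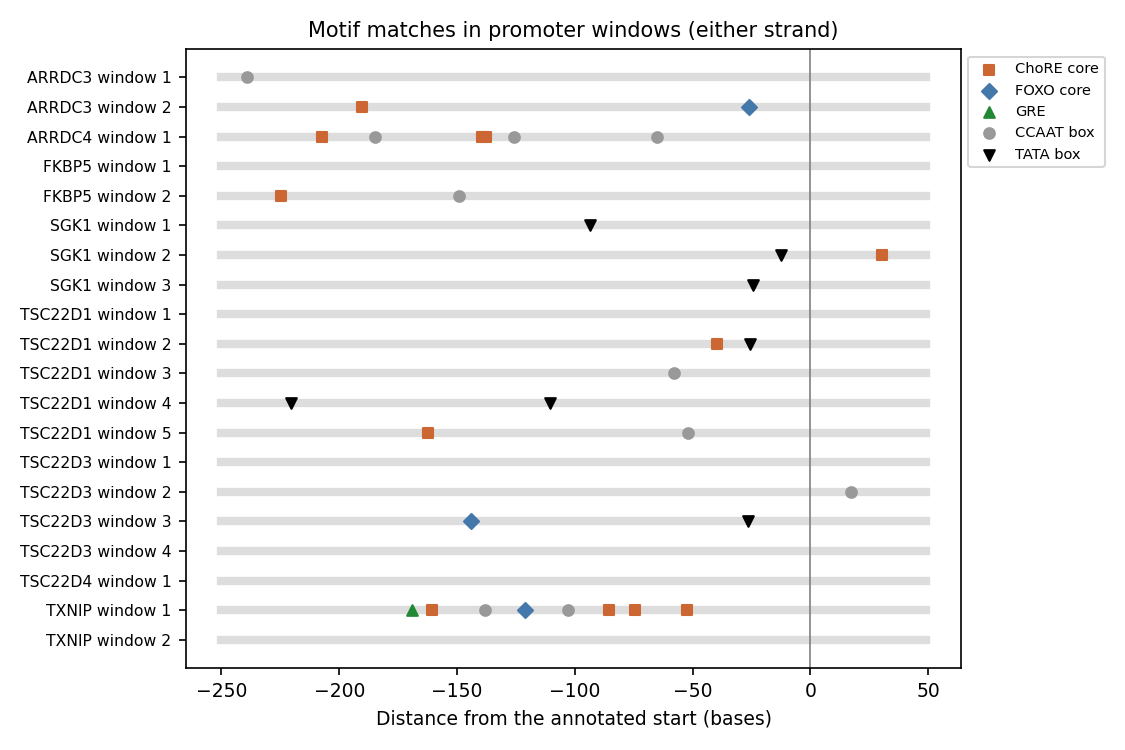
Positions of motif matches (either strand) in the 20 promoter windows of 8 genes, as distance in bases from the annotated start at 0. ChoRE core stands for CACGNG and GRE for the glucocorticoid response pattern. TXNIP window 1 holds 4 CACGNG matches and 1 FOXO core, and ARRDC3 window 2 and TSC22D3 window 3 hold 1 FOXO core each.

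Other genes with such promoters went both ways. Of 17 tested genes with a CACGNG pair, TXNIP included, 6 were called higher and 7 lower, with a median log2 fold change of -0.016. Among all 12010 tested genes with a promoter window, 36.9% were called higher and 37.4% lower. GFPT1, the first enzyme of hexosamine synthesis, carries a pair and measured 113 ± 2.82 CPM in Scramble libraries and 111 ± 2.37 CPM after DIS3-sh1 (adjusted p = 0.719). Of 421 tested genes with a FOXO core, 39.7% were called higher and 36.1% lower. Of 1490 with the E-box, 31.3% were higher and 43.9% lower (median log2 fold change -0.0805), and of 38 with the GNACANNNTGTNC pattern, 47.4% were higher and 36.8% lower (median 0.152). GFPT1 was chosen after its values were seen.

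The list of glucose sensing genes went both ways. Beside the factors that drive TXNIP and ARRDC4, it holds hexokinases, glucose transporters, PKLR, and the MAX, MNT, MXI1 and MXD genes. Of its 14 genes 13 were tested, and 6 rose and 5 fell, with a median log2 fold change of -0.085. Of all genes tested, 34.5% were called higher and 32.6% lower, and the shares of the lists below are to be read against these. MLXIP (MondoA) went from 184 ± 8.80 to 146 ± 6.82 CPM, a log2 fold change of -0.34 ± 0.04, while MLXIPL (ChREBP) rose from 5.84 ± 0.85 to 12.5 ± 0.47 CPM and MLX rose by 0.22 ± 0.05 on that scale. The glucose transporter gene SLC2A1, whose product TXNIP helps to remove from the membrane, fell by 1.08 ± 0.06 (adjusted p = 8.86e-16), HK2 fell by 0.77 and MAX by 0.73, and HK1 rose by 0.66 ± 0.04.

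Thioredoxin, the binding partner of TXNIP, and its relatives were mostly lower. Of 20 genes of the thioredoxin and peroxiredoxin system, 13 fell and 5 rose, and the median log2 fold change was -0.50. TXN averaged 223 ± 3.12 CPM in Scramble and fell to 143 ± 4.49 CPM (-0.64 ± 0.03 on the log2 scale, adjusted p = 1.07e-17), and its cytosolic reductase TXNRD1 fell by 0.51. The peroxiredoxin genes PRDX1 (-1.12), PRDX4 (-0.73) and PRDX3 (-0.67) fell, and TXNRD3 (1.01) rose. The ubiquitin ligases that alpha-arrestins recruit, listed with ARRDC1, ARRDC2 and ARRDC5, were mixed, with 4 higher and 5 lower of 11 tested (median -0.075). WWP2 (-0.55), WWP1 (-0.48) and SMURF1 (-0.43) fell, and NEDD4 rose by 0.58 and HECW1 by 1.33 from 0.67 ± 0.29 CPM.

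Of 13 partners of TSC22D proteins around NRBP1 and the WNK kinases, 7 rose and 5 fell, with a median log2 fold change of 0.22. NRBP1 itself measured 47.5 ± 0.28 and 48.9 ± 1.14 CPM (adjusted p = 0.466, and 0.0305 with upper-quartile scaling), and its paralog NRBP2 rose from 6.24 ± 0.79 to 16.2 ± 0.92 CPM. WNK1, the most abundant, fell by 0.38 ± 0.02, WNK3 (-0.86) and WNK4 (-1.87) fell too, while STK39, the SPAK kinase that WNKs activate, rose by 0.97 ± 0.06.

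**Figure D5:**
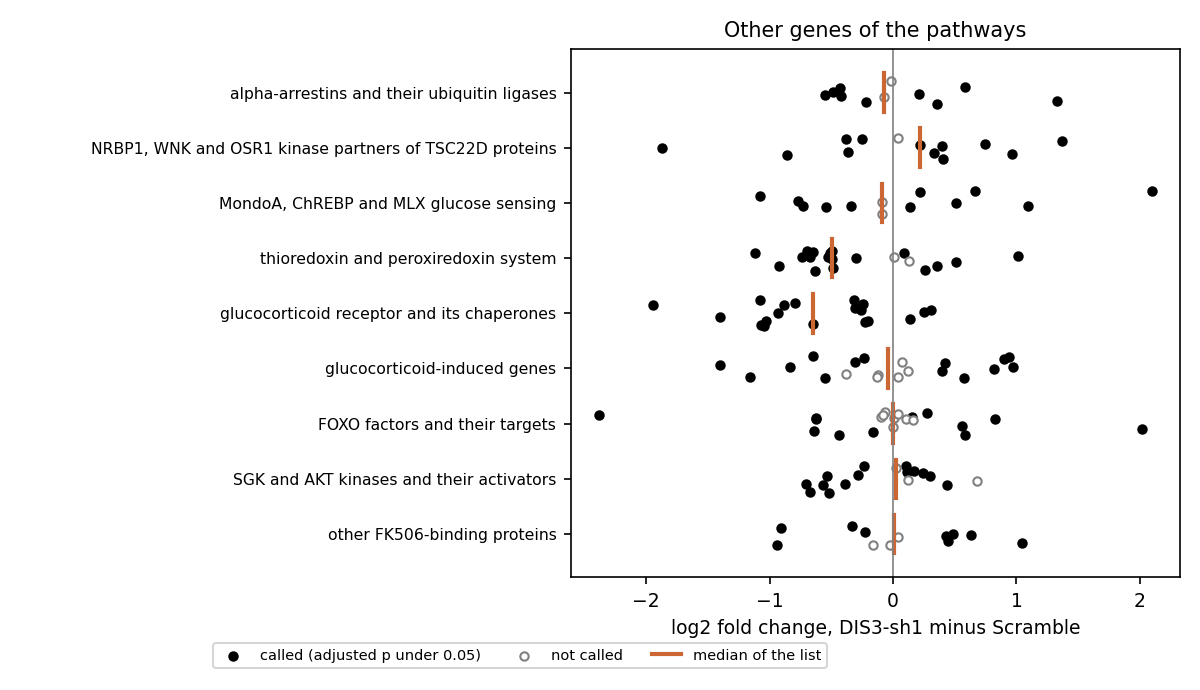
Log2 fold change (DIS3-sh1 minus Scramble) of every tested gene in 9 lists of related genes, filled where called at an adjusted p under 0.05, with the median of each list. The glucocorticoid receptor and chaperone list (median -0.64) and the thioredoxin list (-0.50) lie mostly to the left, and the others lie on both sides of 0.

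The glucocorticoid receptor and the chaperones that hold it, the system FKBP5 belongs to, were mostly lower. Of 19 tested, 16 fell and 3 rose, with a median log2 fold change of -0.64. NR3C1, the receptor gene, fell by 0.26 ± 0.04 on the log2 scale and NR3C2, the mineralocorticoid receptor gene, rose by 0.31 ± 0.06. HSPA8 (-1.94), HSP90AA1 (-1.08), PTGES3, the p23 co-chaperone (-1.03), and HSP90AB1 (-0.89) fell. Of 12 other FK506-binding protein genes tested, 5 rose and 4 fell (median 0.0077), with FKBP10 at 1.04 ± 0.04, FKBP9 at 0.63, FKBP8 at 0.43 and FKBP1A at -0.94 ± 0.03.

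Genes that glucocorticoids induce elsewhere went both ways, as TSC22D3, FKBP5 and SGK1 did. Of 20 tested, 7 rose and 7 fell, and the median log2 fold change was -0.039. KLF9 rose by 0.58 ± 0.05 and TFCP2L1 by 0.90 ± 0.08, and GLUL (-0.55), PIK3R1 (-0.65) and MT1X (-1.40) fell. FOXO factors and their targets likewise gave 6 higher and 6 lower of 20 (median 0.0029): TRIB1 rose by 0.83 ± 0.05 and INSR by 0.56, and FOXO1 (-0.62), BCL2L11 (-0.63) and TRIB2 (-2.38, from 1.95 ± 0.32 CPM) fell. Around SGK1, 6 of 17 kinases and activators rose and 8 fell (median 0.021), among them RPTOR (-0.57), MAPKAP1 (-0.52) and PIK3R3 (-0.67). ARRDC1, ARRDC2, NRBP1, MLXIP, MLXIPL, MLX, TXNRD1 and NR3C1 were named after their values were seen, as the closest partners of the genes described. SLC2A3 was also named after its values were seen, as the other listed glucose transporter.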

How the data were processed

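The authors deposited 1 table of expected counts, in which part of the values are fractions. Named tools are featureCounts 1.5.1, SAMtools, HISAT2 2.1.0 and Bowtie2 2.3.5, with build hg38, per the submitters' processing notes. Their roles, the annotation and the use of strand are not given in the sources used here. The series' design text calls the libraries biological replicates. Columns of 6 libraries matched the labels. The names of 3 other columns matched none, so they were not used, and the planned DIS3-sh2 results were not computed.

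Expected counts were rounded to whole numbers (largest change of a total 0.0014%). They were tested in R 4.3.3 with edgeR 4.0.16: TMM scaling, filterByExpr, group as the only term, the robust quasi-likelihood test (two-sided) and Benjamini-Hochberg adjustment over 19591 genes, called at an adjusted p under 0.05. SE is the absolute log2 fold change over the square root of F. Gene positions and exon lengths came from GENCODE 29 (GRCh38), symbols from a table matched by identifier. The 9 genes and all lists were chosen with earlier results of these data known. The text names the 9 genes, DIS3, the 4 genes of smallest p per list, the called gene with the largest change against its list and the 3 nearest profiles of 3 genes, plus those it says were chosen later, and 1 gene this rule picks is not reported here. Of 24 listed glucocorticoid-induced names, SDPR had no row of its own. Alternatives were RLE and upper-quartile scaling, no filter, DESeq2 1.42.0, limma-voom 3.58.1, the replicate number as a block, no small structural, ribosomal or mitochondrial RNA genes, and leaving out each library.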

Additional observations from a re-analysis of the deposited data

How the results depend on the processing

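Over 13 alternatives, none of the 9 genes changed the sign of its log2 fold change, and the number above 0 was 4 in each. TXNIP ranged from 1.97 to 2.07, TSC22D3 from 1.79 to 1.89, ARRDC4 from 0.52 to 0.62, ARRDC3 from 0.05 to 0.19, TSC22D4 from -0.17 to -0.05, TSC22D1 from -0.41 to -0.31, TSC22D2 from -0.51 to -0.39, FKBP5 from -0.47 to -0.33 and SGK1 from -0.92 to -0.57. Upper-quartile scaling, which puts the median of all genes at 0.0993 in place of 0.019, moved 6 of them by more than their replicate spread. The genes called, 13130 in all, numbered 11986 with DESeq2, 13479 with no filter and 12537 to 12836 without 1 library, and counts of calls in the 9 lists stayed within 1.5 times. On CPM instead of CPM per kb, FKBP5 and not TSC22D3 was the highest of the 9 genes in Scramble. The replicate block gave 13166 calls. Deviations of same-numbered libraries correlated at 0.0374, 0.0138 and 0.0104 over genes, so the numbers were not taken to pair them. GFPT1, not called in any alternative, had a log2 fold change of -0.016, which upper-quartile scaling turned to 0.0645 and which ran from -0.0424 to 0.0045 when 1 library was left out (above 0 without DIS3-sh1 replicate 1). SGK1 rests on the fewest counts.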
